A study of Mus musculus with 6 samples.

Results

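The collagen chaperone Hsp47, listed under its gene symbol *Serpinh1*, was examined together with 9 genes for enzymes that modify and fold procollagen in the endoplasmic reticulum (ER). The 10 genes were taken by symbol from the 28987 genes of the expression table, each matched 1 row, and all 10 passed the filter on low values that left 15109 genes for testing. They are the prolyl 4-hydroxylase α subunits *P4ha1*, *P4ha2* and *P4ha3* with their partner *P4hb*, the lysyl hydroxylases *Plod1*, *Plod2* and *Plod3*, and the peptidyl-prolyl isomerases *Ppib* and *Fkbp10*. The rule was what these genes are known to do, with no threshold on a measured value.

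Procollagen chains are modified in the ER before they fold. Prolyl 4-hydroxylases convert proline to hydroxyproline, which the triple helix needs to be stable at body temperature, and lysyl hydroxylases make hydroxylysine, which carries sugars and later takes part in cross-links. Isomerases speed the folding of proline-rich chains, and Hsp47 binds the folded triple helix and accompanies it out of the ER. Fibroblasts that become myofibroblasts after injury of the heart secrete large amounts of fibrillar collagen and so rely on this machinery.

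Interstitial cells of the heart ventricles were sorted for EGFP 4 weeks after TAC, an operation that narrows the aorta and puts the heart under pressure overload, and their RNA was sequenced. All mice carried a MerCreMer cDNA, a Cre recombinase that tamoxifen activates, in the *Postn* locus and a Cre-dependent EGFP reporter in the *Rosa26* locus. The 3 control libraries came from mice with these alleles alone, and the 3 libraries labelled Hsp47-deleted came from mice that were also *Hsp47* flox/flox, so the comparison asks how these genes differ in myofibroblasts whose *Hsp47* is deleted. Per the labels, mice were 8 to 10 weeks old at surgery and received 2 tamoxifen injections (100 mg/kg) and tamoxifen chow (40 mg/kg) until the end. The study's methods text gives other tamoxifen doses, male mice and a C57BL/6 background. Recombination and sorting both depended on *Postn* expression, so only cells that had switched on *Postn* could be recombined and collected, and the sort selected for the reporter, not for loss of *Hsp47*. Nothing in the labels says whether a library was made from 1 mouse or from several.

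The values are log2(value + 1) as deposited and are given in the order of control replicates 2, 3 and 4, then Hsp47-deleted replicates 1, 2 and 3. The linear unit is not named, so the depth of each library is unknown and intervals that need a depth are not given. Linear values summed to between 690498.5 and 855404.3 per library. Control replicates 3 and 4 came from one sequencing run, and control replicate 2 came from a second run together with all 3 Hsp47-deleted libraries, so run and group overlap in part. Across the tested genes the Pearson correlation between libraries was lowest between control replicates 2 and 4 (0.761) and highest between Hsp47-deleted replicates 1 and 2 (0.952). Fibroblast markers were abundant in every library, with *Dcn* highest and a summed linear value of 8070 to 11000 in controls and 12600 to 14400 in Hsp47-deleted libraries. Among them *Postn*, the gene that drives the recombinase, was at 6.12, 5.87 and 5.86 in the controls and at 10.22, 10.50 and 10.36 in the Hsp47-deleted libraries, the only one of the 10 fibroblast markers that passed the test (log2 fold change 4.41, standard error 0.28, limma, Benjamini-Hochberg adjusted p = 0.00337). The labels do not say whether 1 or both *Postn* copies carried MerCreMer in each group. The paper writes *Postn*-MCM/+, that is 1 copy, for the Hsp47-deleted mice of its RT-PCR 4 weeks after TAC, which also found *Postn* induced. It gives the controls of its proliferation experiment as *Postn*-MCM/+ too. The part of this allele in the *Postn* value was not tested. Markers of other cells were lower. Their summed values in controls and in Hsp47-deleted libraries were 51.4 to 286 and 169 to 259 for cardiomyocytes (*Tnnt2* highest), 131 to 368 and 257 to 405 for endothelial cells (*Eng* highest), 38.6 to 91.6 and 100.0 to 131 for leukocytes (*Cd68* highest) and 185 to 314 and 182 to 271 for mural cells (*Rgs5* highest). The leukocyte marker *Ptprc* was listed at 0 in all 6 libraries, while the summed leukocyte markers, like the summed fibroblast markers, were higher in every Hsp47-deleted library than in every control. Gene by gene, the groups were apart in this way for 4 of the 10 fibroblast markers and 1 of the 7 tested leukocyte markers (18.3% of all genes). The pooled difference was below 0 for 2 of these fibroblast markers and 1 of these leukocyte markers. What part other cells have in the differences described here was not tested, and in sorted bulk cells a smaller number of cells of a type cannot be told apart from less RNA per cell.

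All 10 genes lay above the median tested gene. Ordered by the mean log2 value over the 6 libraries they ran *P4hb* (7.90), *Plod2* (7.60), *Serpinh1* (6.70), *Ppib* (6.59), *Plod3* (5.34), *P4ha1* (5.12), *Plod1* (4.85), *Fkbp10* (4.80), *P4ha3* (4.28) and *P4ha2* (3.77). *P4hb* lay at percentile 97.9 of the tested genes and *P4ha2* at percentile 62.2. This order holds only if the values are per transcript length, as those of kallisto, the quantifier named in the submitters' processing notes, are. Of the 9 pairs of neighbours in the order, 1 kept its direction in all 6 libraries. *Ppib* lay above *Plod3* by 0.28 to 1.90, so that *P4hb*, *Plod2*, *Serpinh1* and *Ppib* formed an upper group and the other 6 genes a lower one in the means, with neighbours inside each group changing places between libraries. The 2 groups were not apart in every library, as *P4ha3* (5.42) lay above *Ppib* (5.22) in control replicate 4. *Plod2* was the highest of the 10 in control replicates 3 and 4, and *P4hb* was the highest in the other 4 libraries.

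**Figure D1:**
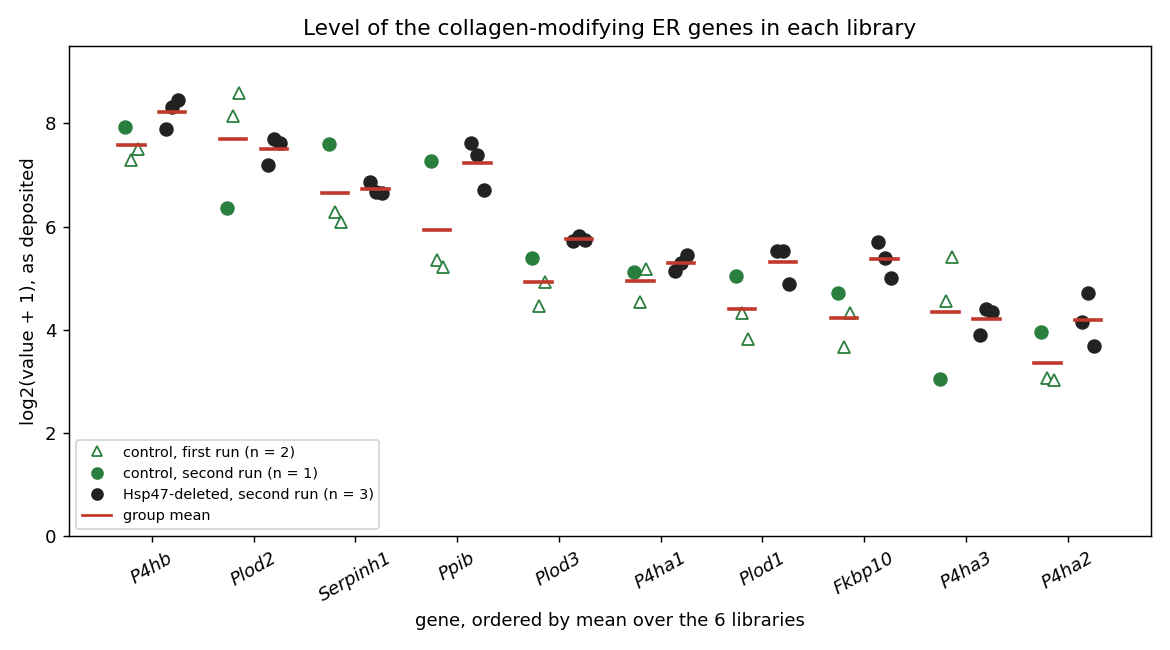
Level of each of the 10 genes in each of the 6 libraries, as log2(value + 1), with genes ordered by their mean. Green marks are controls (open triangles for the 2 of the first sequencing run, filled circle for the 1 of the second), black circles are the 3 Hsp47-deleted libraries and red lines are group means. For *Serpinh1*, *Ppib*, *Plod2* and *P4ha3* the control of the second run stands far from the other 2 controls.

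*Serpinh1* (ENSMUSG00000070436) lies at chr7:99345376-99353239 on the minus strand of GRCm38 (GENCODE release M21). The annotation gives 7 transcripts, of which 4 carry the full coding sequence of 417 codons, 2 of them with 5 exons and 2 with 6. In all 4 the last exon holds 300 of the 1251 coding bases (24.0%) and the 3′ untranslated part of the message. The study's methods describe the floxed exon as exon 6, which is the last exon of the transcripts with 6 exons. The coding sequence across the junction into the last exon is shown because it marks where the floxed exon begins if the study numbers exons by these transcripts, with 30 bases on each side (chr7:99346925-99346954 and chr7:99346393-99346422, minus strand), read 5′ to 3′ with the bases of the last exon in capitals.
*Serpinh1*: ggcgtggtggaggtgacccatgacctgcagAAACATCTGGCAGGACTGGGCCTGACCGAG
The table holds 1 value per gene, so reads from this exon cannot be told apart from reads of the exons before it.

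**Figure D2:**
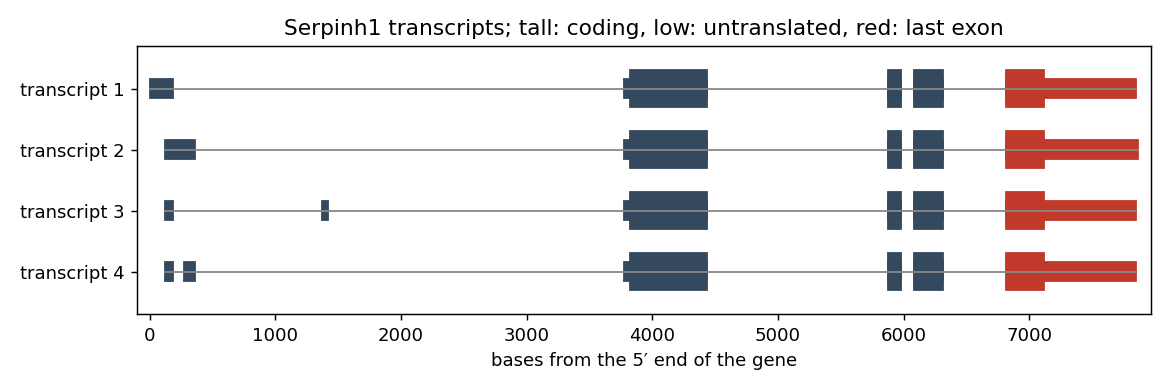
The 4 *Serpinh1* transcripts with the full coding sequence, drawn to scale in bases from the 5′ end of the gene. Tall boxes are coding, low boxes untranslated, and the last exon, with 300 coding bases, is red. The transcripts share all coding exons and differ only in the untranslated exons at the 5′ end and by a few bases at the 3′ end.

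The value of *Serpinh1* was 7.60 in control replicate 2, 6.28 in replicate 3 and 6.10 in replicate 4, and the Hsp47-deleted libraries had 6.87, 6.67 and 6.66. These 3 libraries lay close together (SD 0.12), between the control of the second run above them and the first-run controls below them. Over all libraries the difference was 0.07 (standard error 0.43, limma over 15109 genes, BH-adjusted p = 0.947). With all controls and the values as deposited, no drop of the targeted transcript was detected in the libraries labelled Hsp47-deleted. By Western blot of sorted EGFP+ myofibroblasts the paper reports efficient loss of Hsp47 protein, which a value for the RNA of the whole gene does not measure. Within the second run all 3 Hsp47-deleted libraries lay below the 1 control, by 0.87 on average. This value rests on the only control sequenced there and was not tested within that run alone. The direction also turned when each library was centred on its median (-0.34).

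The prolyl 4-hydroxylase is a tetramer of catalytic α subunits, 1 of 3 isoforms, with the disulfide isomerase encoded by *P4hb*. *P4ha1* (chr10:59323296-59373304, plus strand), the α subunit of most tissues, had values of 5.12, 4.53 and 5.18 in controls and of 5.15, 5.30 and 5.46 in Hsp47-deleted libraries. The groups overlapped and their means differed by 0.36 (standard error 0.30, limma, BH-adjusted p = 0.571), and its range over the libraries was the narrowest among the 10 genes. *P4ha2* (chr11:54100095-54131665, plus strand), the second isoform, was at 3.96, 3.06 and 3.03 in controls and at 4.15, 4.71 and 3.69 in Hsp47-deleted libraries. Only the second-run control reached the range of the Hsp47-deleted libraries, and the difference was 0.84 pooled (standard error 0.40, limma, BH-adjusted p = 0.356) and 0.23 within the second run.

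*P4ha3* (chr7:100285520-100319699, plus strand), the third isoform, behaved differently across the controls. It was at 3.06, 4.57 and 5.42 in controls and at 3.89, 4.40 and 4.34 in Hsp47-deleted libraries. The second-run control was the lowest of the 6 libraries and a first-run control the highest, so the difference was -0.13 pooled (standard error 0.57, limma, BH-adjusted p = 0.924) but 1.16 within the second run, where all 3 Hsp47-deleted libraries lay above the control. *P4hb* (chr11:120560298-120573253, minus strand) was at 7.92, 7.29 and 7.50 in controls and at 7.88, 8.32 and 8.45 in Hsp47-deleted libraries. Hsp47-deleted replicate 1 lay just under the second-run control and the other 2 above every control (difference 0.65, standard error 0.32, limma, BH-adjusted p = 0.362). The difference was 0.30 within the second run and 0.23 after centring.

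Of the lysyl hydroxylases, *Plod1* (chr4:147909753-147936767, minus strand) and *Plod3* (chr5:136987019-136996648, plus strand) had higher means in the Hsp47-deleted libraries, while *Plod2* did not. *Plod1*, which hydroxylates lysines of the helix, was at 5.04, 4.33 and 3.83 in controls and at 5.52, 5.52 and 4.89 in Hsp47-deleted libraries (difference 0.91, standard error 0.39, limma, unadjusted p = 0.0478, BH-adjusted p = 0.324), and the difference was 0.27 within the second run. *Plod3*, which also adds sugars to hydroxylysine, was at 5.39, 4.46 and 4.93 in controls and at 5.72, 5.83 and 5.73 in Hsp47-deleted libraries. Every Hsp47-deleted library lay above every control for *Plod3*, and these 3 had the smallest spread of the 10 genes (SD 0.058). Its difference was 0.83 pooled (standard error 0.32, limma, unadjusted p = 0.0318, BH-adjusted p = 0.306) and 0.37 within the second run. Its exons overlap those of *Znhit1* on the opposite strand and of *Mir702* on the same strand, and whether strand was used in quantification is not given in the sources used here.

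*Plod2* (chr9:92542223-92608428, plus strand) encodes the lysyl hydroxylase of the telopeptides, the chain ends where fibrotic cross-links start. Its value was 6.35 in the second-run control but 8.15 and 8.59 in the first-run controls, and the Hsp47-deleted libraries had 7.20, 7.69 and 7.62. As with *P4ha3*, the Hsp47-deleted libraries fell between the second-run control and the first-run controls, here with the second-run control 2.02 below the mean of the other controls. Over all libraries the difference was -0.19 (standard error 0.56, limma, BH-adjusted p = 0.884), whereas within the second run it was 1.15, a value that rests on that 1 control. The annotation places *Gm38391*, a gene of type TEC, on the opposite strand over its exons.

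The isomerases had the largest pooled differences of the 10 genes. *Ppib* (chr9:66060222-66066623, plus strand) encodes cyclophilin B, which works in the complex that 3-hydroxylates single prolines of type I collagen, and was at 7.26, 5.35 and 5.22 in controls and at 7.62, 7.39 and 6.71 in Hsp47-deleted libraries. The second-run control was within the range of the Hsp47-deleted libraries and the first-run controls were well below. The difference was therefore 1.30 pooled (standard error 0.57, limma, BH-adjusted p = 0.332), a 2.46-fold change on the log2(value + 1) scale, and -0.02 within the second run. Exons of *Ppib* overlap those of *Snx22* on the opposite strand.

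*Fkbp10* (chr11:100415697-100424824, plus strand) encodes FKBP65, an ER isomerase needed for telopeptide lysyl hydroxylation whose loss causes brittle bones. It was at 4.71, 3.67 and 4.32 in controls and at 5.69, 5.38 and 5.01 in Hsp47-deleted libraries. All Hsp47-deleted libraries lay above all controls, by 1.13 on average (2.18-fold on the log2(value + 1) scale, standard error 0.36, limma, unadjusted p = 0.0152, BH-adjusted p = 0.283). Within the second run the difference was 0.65, the largest among the genes whose pooled and second-run differences had the same sign. Its exons overlap those of *Nt5c3b* on the opposite strand.

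None of the 10 genes passed a BH-adjusted limma p under 0.05, a threshold that 37 of the 15109 genes passed (0.245%, with 0.232% higher and 0.0132% lower). At an unadjusted limma p under 0.05, 3 of the 10 genes were higher in the Hsp47-deleted libraries (*Plod1*, *Plod3* and *Fkbp10*) and 0 were lower, against 14.5% of all tested genes higher and 0.755% lower. The groups did not overlap for 2 of the 10, *Plod3* and *Fkbp10*, both higher, against 18.3% of all genes higher and 1.5% lower, and 3 libraries against 3 allow no two-sided exact permutation p below 0.10. Of the 10 log2 fold changes 8 were above 0, as were 74.5% of all tested genes. Their median was 0.74, against 0.35 for all tested genes. With the libraries centred on their medians, 6 of the 10 stayed above 0, with *P4ha1* (-0.06), *Serpinh1* (-0.34), *P4ha3* (-0.55) and *Plod2* (-0.61) below. The median of the 10 was then 0.33 and that of all genes -0.06.

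Within the second run the picture of the 10 genes was another one. The 3 Hsp47-deleted libraries all lay above the control for 5 genes (*P4ha1*, *P4ha3*, *Plod2*, *Plod3* and *Fkbp10*), as they did for 46.7% of all tested genes, and all lay below it for *Serpinh1* alone, as they did for 11.7% of all tested genes. The other 4 genes had the control inside their range. The median difference of the 10 was 0.28 and that of all genes 0.29. A fit with sequencing run as a covariate gives these same differences, since the first run holds controls only, and takes their spread from the other libraries on the assumption that the lone control varies as they do. In that fit limma called none of the 10 after BH adjustment and 0.331% of all genes. Control replicate 2 differed from the mean of the first-run controls by 1.98 at *Ppib*, 1.41 at *Serpinh1*, -1.94 at *P4ha3* and -2.02 at *Plod2*, and by 0.27 to 0.96 at the other 6 genes. Without this library 4 of the 10 genes were called higher (*Plod1*, *Plod3*, *Ppib* and *Fkbp10*, limma, BH-adjusted p from 0.0114 to 0.0429), and so were 16.4% of all tested genes (18.3% in either direction), 0 of the 10 were called lower, as were 1.87% of all, while *Serpinh1* was 0.54 higher (BH-adjusted p = 0.167). In that comparison every control came from one sequencing run and every Hsp47-deleted library from the other, so run and label cannot be told apart.

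**Figure D3:**
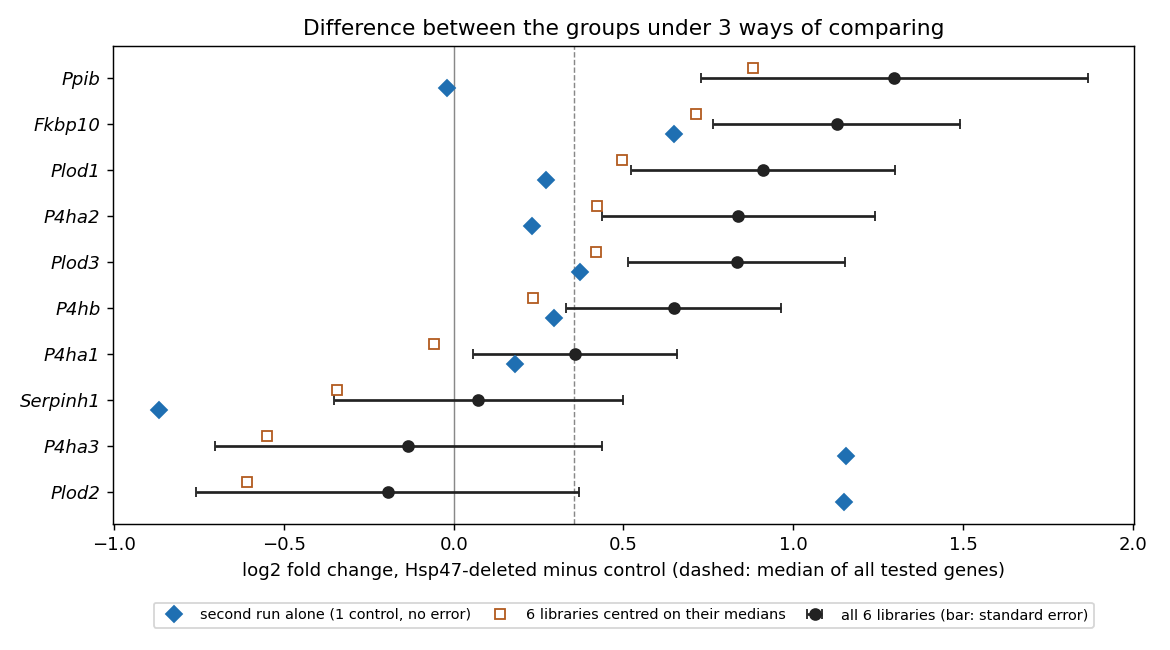
Difference between the groups for each of the 10 genes, Hsp47-deleted minus control, as a log2 fold change. Black circles with bars are the fit over all 6 libraries with its standard error, blue diamonds are the second sequencing run alone (3 against 1, no error) and open squares are the 6 libraries centred on their medians. *Serpinh1* moves from 0.07 to -0.87 and *Plod2* from -0.19 to 1.15 between all libraries and the second run, while *Fkbp10*, *Plod1*, *P4ha2*, *Plod3* and *P4hb* lie above 0 in all 3 comparisons.

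To set the genes against each other within each library, 9 ratios were compared, log2 ratios of value + 1 and shares of linear values, with a two-sided exact permutation test over the libraries and BH adjustment over the 9. Set against *Col1a1*, its main client, *Serpinh1* was at a log2 ratio of -1.14, -1.92 and -2.32 in controls and of -2.27, -2.86 and -2.04 in Hsp47-deleted libraries. The control of the second run was the highest and a Hsp47-deleted library the lowest, with overlap between the groups (-1.79 ± 0.60 against -2.39 ± 0.42, SD, n = 3 each, exact permutation p = 0.3, BH-adjusted p = 0.514). *Col1a1* itself was at 8.74, 8.20 and 8.41 in controls and at 9.14, 9.52 and 8.70 in Hsp47-deleted libraries. Its difference was 0.67 pooled (standard error 0.34, limma, BH-adjusted p = 0.374) and 0.38 within the second run. *Col3a1* differed by 0.14 pooled and -0.04 within the second run. The paper instead reports both mRNAs reduced, by RT-PCR of sorted EGFP+ myofibroblasts 4 weeks after TAC normalized to *Gapdh*. From the RNA-seq it reports reduced expression of matrix-related genes. Why the directions differ was not tested. Set against the mean of the 9 other genes, the log2 value of *Serpinh1* was higher by 2.18, 1.24 and 0.76 in controls and by 1.00, 0.61 and 0.89 in Hsp47-deleted libraries. The difference between the groups was -0.56 (exact permutation p = 0.3, BH-adjusted p = 0.514), and it was -1.34 from the control of the second run. The log2 ratio of *P4hb* to the summed α subunits averaged 1.58 ± 0.51 over controls and 1.99 ± 0.20 over Hsp47-deleted libraries (SD, n = 3 each, exact permutation p = 0.3, BH-adjusted p = 0.514).

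The make-up of both hydroxylase families differed between the controls of the first and the second run. These shares, like the order of levels, hold only if the values are per transcript length. *P4ha3* made up 43.5% and 49.6% of the summed α subunit values in the first-run controls but 13.1% in the second-run control, and 21.3%, 24.1% and 26.0% in the Hsp47-deleted libraries. *P4ha1* made up 42.4% and 41.9% in the first-run controls, 60.8% in the second-run control and 45.9% to 57.9% in the Hsp47-deleted libraries, and *P4ha2* made up the rest, up to 26.1% in controls and 16.1% to 30.0% in Hsp47-deleted libraries. Thus *P4ha3* was the leading isoform in both first-run controls, in replicate 3 by a narrow margin, and *P4ha1* was the leading isoform in all 4 libraries of the second run. *Plod2* was the leading lysyl hydroxylase in all 6 libraries. Its share was 87.6% and 90.0% in the first-run controls, 52.6% in the second-run control and 60.2%, 67.2% and 70.7% in the Hsp47-deleted libraries. *Plod1* took 5.92% and 3.09% in the first-run controls against 10.4% to 20.8% in the second run, and *Plod3* took 6.51% and 6.91% against 18.2% to 26.6%. For all 6 shares the groups overlapped (exact permutation p from 0.3 to 0.6, BH-adjusted p from 0.514 to 0.600), and for all 6 the difference from the second-run control had the opposite sign to the pooled difference.

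**Figure D4:**
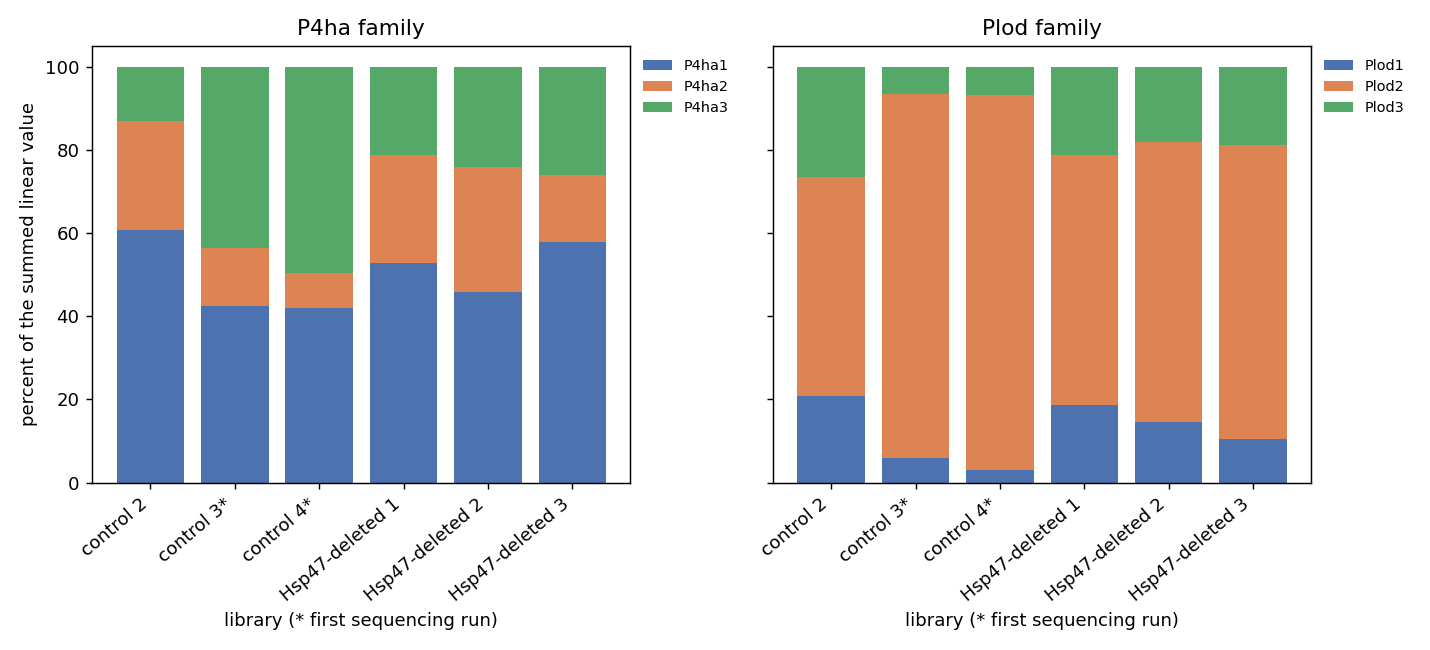
Share of each isoform in the summed linear value of its family, in percent, for the prolyl 4-hydroxylase α subunits (left) and the lysyl hydroxylases (right) in each library. Stars mark the 2 controls of the first sequencing run, in which *Plod2* reaches 87.6% and 90.0% and *P4ha3* 43.5% and 49.6%, above every library of the second run.

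Genes that act beside these 10 were described by list. Other procollagen-modifying genes, which include prolyl 3-hydroxylases, galactosyltransferases and further isomerases, had 14 genes tested. Of these 12 were above 0 and 2 below, where 74.5% of all tested genes were above 0. Limma called 0 of them, and 2 had an unadjusted p under 0.05 in the higher direction (14.5% of all genes). Their median was 0.54 pooled, 0.13 after centring and 0.18 within the second run, where that of all genes was 0.29. The 14 log2 fold changes ran from -0.60 to 1.25. The prolyl 3-hydroxylase P3h3, listed as *Leprel2*, was at 5.27, 4.29 and 3.95 in controls and at 5.87, 5.86 and 5.53 in Hsp47-deleted libraries (difference 1.25, standard error 0.39, limma, BH-adjusted p = 0.282). P3h4, listed as *Leprel4* and part of the complex that hydroxylates helical lysines, differed by 1.11 (limma, BH-adjusted p = 0.313). *Leprel2* was the 1 gene of the list whose groups did not overlap in the higher direction (18.3% of all genes). *Crtap*, the partner of *Ppib* in prolyl 3-hydroxylation, was the 1 gene whose groups did not overlap in the lower direction (1.5%). It was at 7.15, 7.33 and 7.40 in controls and at 6.94, 6.58 and 6.57 in Hsp47-deleted libraries (difference -0.60, limma, BH-adjusted p = 0.342) and was singled out after its values were seen.

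The substrates were described in the same way. Of 11 fibrillar collagen genes 9 were tested, 8 were above 0, 0 were called by limma, 2 had an unadjusted p under 0.05 (14.5% of all genes did so in the higher direction) and 5 had groups that did not overlap (18.3%), all higher. Their median was 0.67 pooled, 0.26 after centring and 0.38 within the second run. *Col11a2*, a chain of type XI collagen, differed by 1.59 and *Col5a2*, a chain of type V collagen that regulates fibril width, by 0.84 (limma, BH-adjusted p = 0.282 and 0.283). The values of *Col11a2* were low, at 1.59, 0.36 and 1.74 in controls and at 2.41, 3.45 and 2.59 in Hsp47-deleted libraries. General ER chaperones had 13 genes tested, 11 above 0, 0 called by limma, 4 at an unadjusted p under 0.05 and 6 without overlap, all higher. Their median of 0.43 lay near the 0.35 of all genes and was 0.015 after centring, when 7 of the 13 were above 0. *Canx*, the lectin chaperone calnexin, was at 7.66, 6.82 and 6.96 in controls and at 9.28, 8.64 and 9.38 in Hsp47-deleted libraries, a difference of 1.95 (standard error 0.36, limma, BH-adjusted p = 0.114) that was 1.44 within the second run. *Calr*, the related chaperone calreticulin, differed by 0.86 (limma, BH-adjusted p = 0.283).

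*Serpinh1* is a heat shock gene by regulation, and *P4ha1*, *P4ha2* and *Plod2* are known to respond to low oxygen, so both responses were also set beside them. All 10 heat shock response genes were above 0, with a median of 0.81 (0.73 within the second run and 0.40 after centring), 0 called by limma, 4 at an unadjusted p under 0.05 (14.5% of all genes in the higher direction) and 5 without overlap (18.3%). The inducible chaperone *Hspa1b* and the co-chaperone *Bag3* both differed by 1.45 (limma, BH-adjusted p = 0.214 and 0.255). *Bag3* was at 6.82, 6.72 and 6.82 in controls and at 7.47, 8.45 and 8.80 in Hsp47-deleted libraries. All 15 hypoxia response genes were also above 0, with 0 called by limma and 0 at an unadjusted p under 0.05, but their median of 0.40 was close to the 0.35 of all genes. Its genes of smallest p were *Adm*, the vasodilator peptide adrenomedullin (0.71, limma, BH-adjusted p = 0.334), and *Higd1a*, a mitochondrial protein (0.58, limma, BH-adjusted p = 0.412). With the libraries centred, 7 of the 15 hypoxia genes and 7 of the 10 heat shock genes stayed above 0.

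**Figure D5:**
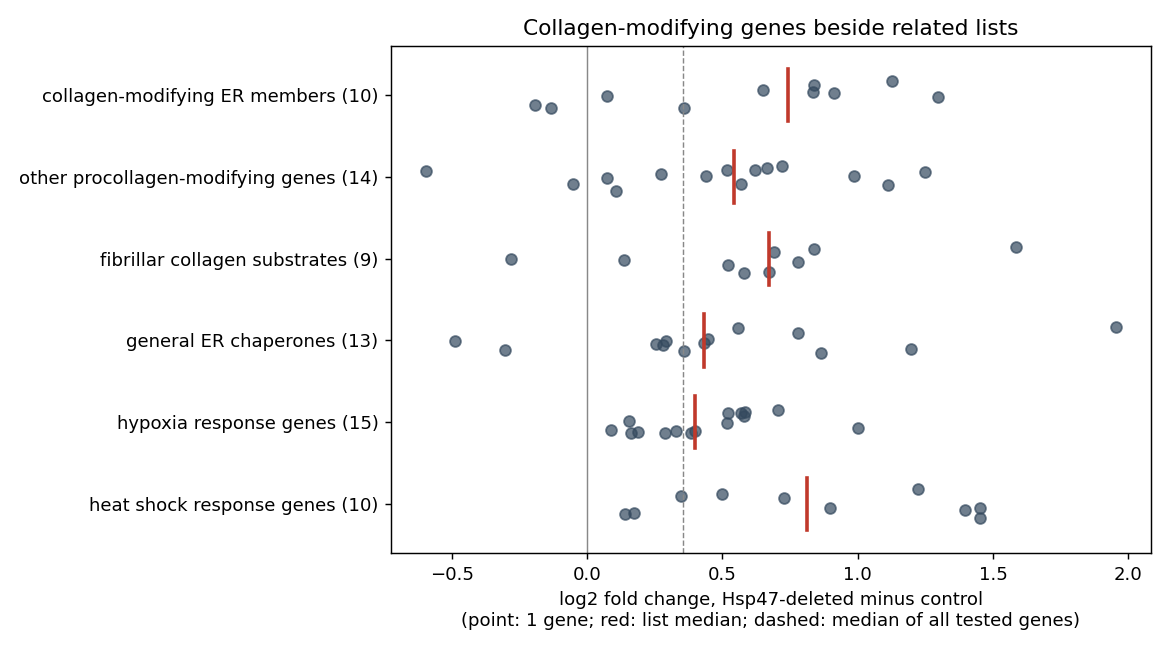
Log2 fold change, Hsp47-deleted minus control over all 6 libraries, of each tested gene in 6 lists, with the number tested in parentheses. Each point is 1 gene, red bars are list medians and the dashed line is the median of all tested genes at 0.35. The medians of the lists lie between 0.40 for hypoxia response genes and 0.81 for heat shock response genes, with 0.74 for the 10 collagen-modifying genes.

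The genes whose pattern over the libraries was most like that of *Serpinh1* were looked for among 7031 genes with a mean linear value of at least 10. Likeness was the root mean square difference of the deviations from each gene's own mean on the log2 scale over the 6 libraries, whose median over these genes was 0.67. The 5 closest were *Acat1* (0.0697), *Ifitm3* (0.135), *Anxa7* (0.143), *Kdelr3* (0.168) and *Ublcp1* (0.170). *Acat1*, a mitochondrial thiolase, was at 5.82, 4.70 and 4.47 in controls and at 5.21, 5.10 and 4.97 in Hsp47-deleted libraries, again with the second-run control on top and the first-run controls at the bottom. *Kdelr3*, a receptor that returns proteins to the ER, had the same order of controls, from 4.57 in replicate 4 up to the second-run control. None of the other 9 collagen-modifying genes was among the closest. The nearest was *Plod1*, at rank 1360 (0.49), and the farthest were *P4ha3* and *Plod2*, at ranks 6354 and 6362 of 7031 (both 1.18).

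Promoter sequences of RefSeq (GRCm38.p6, 250 bases before the start site and 50 after) matched 8 of the 10 genes by symbol, all but *Plod2* and *Fkbp10*. The letters ACGTG, the core of the hypoxia response element, were found on either strand in 6 of the 8, against 19.6% of 32851 promoters. These letters alone do not show which factor binds there, and binding was not tested. Counting only the 250 bases before the start, the same 6 of the 8 held it, against 16.6% of all. The 8 windows were richer in G and C than the typical promoter (median 67.3% against 52.7%). The stretches around each upstream match are shown because they are the one sequence feature, of those searched, that most of the genes had in common. They are written 5′ to 3′ in the sense of the gene, with the match in capitals, as ACGTG or, where it lies on the other strand, as CACGT. Distances are from the RefSeq start. For *P4ha2* this start lies inside the gene as GENCODE places it (from chr11:54100095), so its stretch is upstream of the RefSeq start only.
*Serpinh1*, chr7:99353378-99353437, minus strand, match from 171 to 167 bases before the start: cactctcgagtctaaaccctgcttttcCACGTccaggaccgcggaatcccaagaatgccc
*P4ha1*, chr10:59323236-59323295, plus strand, 16 to 12 before: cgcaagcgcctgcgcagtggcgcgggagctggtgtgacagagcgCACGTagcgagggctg
*P4ha2*, chr11:54100819-54100878, plus strand, 78 to 74 before: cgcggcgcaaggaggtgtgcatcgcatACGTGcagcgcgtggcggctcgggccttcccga
*P4hb*, chr11:120573277-120573336, minus strand, 56 to 52 before: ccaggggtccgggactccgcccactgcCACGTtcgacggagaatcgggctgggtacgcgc
*Plod3*, chr5:136986938-136986997, plus strand, 54 to 50 before: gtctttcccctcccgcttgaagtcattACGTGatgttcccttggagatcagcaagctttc
*Ppib*, chr9:66060038-66060097, plus strand, 104 to 100 before: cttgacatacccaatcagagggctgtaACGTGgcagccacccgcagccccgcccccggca
*Ppib*, chr9:66060104-66060163, plus strand, 38 to 34 before: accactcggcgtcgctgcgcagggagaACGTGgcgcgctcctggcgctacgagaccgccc
The same windows were searched on both strands for other motifs. CCAAT was in 3 of the 8 (37.4% of all promoters) and TATAAA in 2 (13.6%). The heat shock element, searched as GAA, TTC and GAA with 2 bases of any kind between neighbours and as its reverse complement, which marks the same sites (0.603% of all promoters), and the ER stress element, CCAAT and CCACG with 9 bases of any kind between them, which contains the CCAAT letters (0.119%), were in none. The pooled log2 fold changes of the 6 genes with ACGTG ran from 0.07 (*Serpinh1*, standard error 0.43) to 1.30 (*Ppib*, standard error 0.57), none of them called. Whether the motif has a part in these values was not tested.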

How the data were processed

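EGFP+ cells of 3 control and 3 Hsp47-deleted libraries were profiled by RNA-seq after RNA amplification (Ovation RNA-Seq System v2) and Nextera XT library preparation. The submitters' processing notes name kallisto and mm10, and the study names AltAnalyze. The authors deposited log2(value + 1) for 28987 genes. The linear unit is not named, and 69.7% of the linear values are not whole, so no count model was used. Another 9 deposited columns hold the authors' group means and their own comparison and were not used.

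The log2 values were used as deposited (pseudocount 1). Genes with a mean linear value of at least 1 were kept (15109, with 13878 left out) and fitted in limma (version 3.58.1, R 4.3.3) with a mean-variance trend and no covariate, with Benjamini-Hochberg adjustment over all of them at a threshold of 0.05. Ratios were compared with exact permutation tests (scipy 1.17.1). Labels mark the libraries as separate samples but not as separate mice, so p-values measure the spread between these libraries. Gene positions came from GENCODE release M21 (GRCm38), and promoters from RefSeq. The longest transcript of each of the 10 genes was aligned to all transcripts, and none matched another gene's transcript at 95% identity over 80% of its length (minimap2 2.31-r1302). The text names all 10 genes, *Col1a1*, the 2 genes of smallest p in each list, marker genes at 0 or with the highest mean, and the 5 genes most like *Serpinh1*. *Postn* was added after its values were seen, and *Col3a1* because the paper's RT-PCR names it. The genes, lists, tests and alternatives were chosen with earlier results of these data known. Alternatives were run as a covariate, the second run alone, a replicate block, no filter or a minimum mean of 5, a pseudocount of 0.1 or 5, centring, quantile normalization, rescaling to protein-coding genes, removal of GC and length trends (lowess, span 0.3), limma without the trend or with robust estimation, and leaving out each library.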

Additional observations from a re-analysis of the deposited data

How the results depend on the processing

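The number of called genes was 0 with the replicate block, 16 with a pseudocount of 0.1, 17 with quantile normalization, 18 with centring and 17 with rescaling to protein-coding genes, and from 8 to 2768 when 1 library was left out, the highest without control replicate 2. None of the 10 genes was called under any tested alternative other than leaving out control replicate 2 (from 0 to 4 over the left-out libraries). The difference of *Serpinh1* turned to -0.867 with run as a covariate and in the second run alone, -0.279 with the block, -0.266 with quantile normalization, -0.343 with centring, -0.414 with rescaling and -0.293 with GC and length trends removed, and it ran from -0.210 to 0.542 over the left-out libraries, below 0 without control replicate 3 (-0.116) or 4 (-0.210). *P4ha1* turned with centring (-0.058) and rescaling (-0.120). *P4ha3* turned to 1.157 with run as a covariate and in the second run alone and to 0.562 with the block, and ran from -0.779 to 0.401 over the left-out libraries. *Plod2* turned to 1.149 with run as a covariate and in the second run alone, to 0.405 with the block and to 0.138 with GC and length trends removed, and ran from -0.866 to 0.252. *Ppib* turned to -0.020 with run as a covariate and in the second run alone. The median of the 10 was 0.284 with run as a covariate and in the second run alone, 0.292 with quantile normalization, 0.325 with centring and 0.257 with rescaling. In the second run alone, the ratio differences were -1.251 (*Serpinh1* to *Col1a1*), -1.343 (*Serpinh1* to the 9 others) and -0.107 (*P4hb* to the α subunits), and the share differences in percentage points were -8.556, -2.089 and 10.645 (*P4ha1*, *P4ha2*, *P4ha3*) and -6.247, 13.394 and -7.147 (*Plod1*, *Plod2*, *Plod3*). The cause of these changes was not tested. Replicate numbers 2 and 3 occur in both groups, but nothing says that they mark a shared litter or day, and the deviations of same-numbered libraries correlated at 0.156 and 0.228. With 2 shared numbers this establishes no pairing and does not show that there is none, and the libraries were not treated as paired. The replicate block is given here alone.

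The precision is limited by 3 libraries a group, by the unknown depth and by a single control in the second run.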
